A study of Mus musculus and Acomys cahirinus with 25 samples.

Results

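The RNA of 6 bone morphogenetic protein (BMP) ligands (Bmp2, Bmp3, Bmp4, Bmp5, Bmp6 and Bmp7), 3 secreted BMP antagonists (Nog, Grem1 and Sostdc1) and 1 target gene of the pathway (Id1) was followed in healing skin wounds of the laboratory mouse and the spiny mouse. The 10 genes were taken by symbol from count tables of 24500 gene symbols, and all 10 were found in each of the 25 libraries. Levels are given as CPM, the count of a gene per 1000000 reads counted on genes. The libraries were made from separated epidermis or dermis of large full-thickness wounds on the back. The wounds were made to ask how tissue stiffness and the transcription factor Twist1 bear on the formation of new hair follicles in a wound.

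The laboratory mouse libraries (Mus musculus, 4 weeks old by the study's animal list) were all of postwound day (PWD) 14 and came from the wound center or the wound margin. There were 2 epidermis center, 2 epidermis margin, 5 wild-type (WT) dermis center, 2 WT dermis margin and 2 K14-Cre-Twist1 (KO) dermis center libraries. In the KO mice a floxed Twist1 allele is deleted by a Cre recombinase driven by the keratin 14 promoter, which is active in keratinocytes, whereas the sequenced tissue was dermis. Their controls carried Twist1+/+. The study's methods name C57BL/6J as its main laboratory mouse and list the KO and Twist1+/+ mice apart from it, without a strain. The spiny mouse libraries (Acomys cahirinus, WT, 2 months old) covered the whole wound, with no division into center and margin. They held 6 libraries of epidermis (1, 2, 2 and 1 at PWD0, 14, 21 and 28) and 6 of dermis (2, 1, 2 and 1 at the same days), where PWD0 is unwounded skin. The labels do not say which libraries came from separate animals, and the study calls its RNA-seq replicates biologically independent experiments, so p-values measure the spread between these libraries.

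BMPs are secreted dimers that bind type I and type II receptor kinases, which phosphorylate Smad1, Smad5 and Smad9. These enter the nucleus with Smad4 and switch on genes such as Id1, an inhibitor of basic helix-loop-helix transcription factors. Noggin (Nog), Gremlin 1 (Grem1) and Sostdc1 (also called ectodin or Wise) bind ligands outside the cell and keep them from their receptors. In skin, BMP signaling restrains hair placode formation and keeps follicles in rest, while Noggin of the dermal condensate permits placodes to form.

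The upstream sequences of Bmp4 and Grem1, a ligand and an antagonist whose levels the results below turn on, are shown because Twist1 belongs to the factors that bind E-boxes. Each line gives the 250 bases before the transcription start in RefSeq on GRCm38.p6, 5′ to 3′ on the gene's strand, with the E-box letters CANNTG in capitals. The motif reads alike on both strands.
Bmp4 (chr14:46390670-46390919, minus strand): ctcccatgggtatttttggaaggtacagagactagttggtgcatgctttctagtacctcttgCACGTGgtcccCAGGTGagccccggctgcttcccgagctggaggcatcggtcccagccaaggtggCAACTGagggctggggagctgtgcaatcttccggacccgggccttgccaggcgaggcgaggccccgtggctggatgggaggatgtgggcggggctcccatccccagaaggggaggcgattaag
Grem1 (chr2:113758649-113758898, minus strand): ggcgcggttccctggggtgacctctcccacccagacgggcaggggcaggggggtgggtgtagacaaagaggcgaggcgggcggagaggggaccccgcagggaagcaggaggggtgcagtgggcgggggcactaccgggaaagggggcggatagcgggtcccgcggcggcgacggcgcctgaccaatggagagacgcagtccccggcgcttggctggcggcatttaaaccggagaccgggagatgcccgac
The window of Bmp4 held 3 matches and that of Grem1 held 0. Of the 32851 upstream sequences in the table, 66.2% held 1 or more, so a match of this short motif is common. A match is a description of these letters and not a binding site.

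On GRCm38, the genes lie on chromosomes 2 (Bmp2, Bmp7, Grem1 and Id1), 5 (Bmp3), 9 (Bmp5), 11 (Nog), 12 (Sostdc1), 13 (Bmp6) and 14 (Bmp4), and the reads counted are those on their exons. An antisense gene overlaps exons of Bmp4 by up to 89 bases, of Bmp5 by up to 1878 bases and of Bmp6 by up to 224 bases. The spiny mouse libraries did not keep strand, so reads from such stretches cannot be assigned to a single gene there.

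Laboratory mouse libraries held 19413261 to 86532134 reads on genes and spiny mouse libraries 5669760 to 34751956. A count of 3, the smallest amount taken as detectable, corresponded to 0.0347 to 0.155 CPM and to 0.0863 to 0.529 CPM. Reads of both species were aligned to the laboratory mouse genome, so levels are compared within a species only. Within the spiny mouse, the reads set aside for low alignment quality also differed by day. In epidermis they were 59.5% and 59.6% at PWD14 against 52.6% and 50.0% at PWD21. In dermis they were 60.5% and 55.2% at PWD0 against 44.8% and 38.0% at PWD21. Their part in the differences between days was not tested. Summed keratinocyte markers (14 genes such as Krt5 and Krt14) were at 155881 to 215422 CPM in laboratory mouse epidermis and 126 to 4955 CPM in WT dermis. KO dermis replicate 2 stood apart with 35732 CPM of keratinocyte markers, against 1159 CPM in the other KO library, and 2161 genes were at 0 counts in it that reached 1 CPM in its mate. The spiny mouse libraries of PWD28 had 22488 CPM (epidermis) and 29208 CPM (dermis) of hair follicle markers, against 164 to 5435 CPM in the other spiny mouse libraries.

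**Figure D1:**
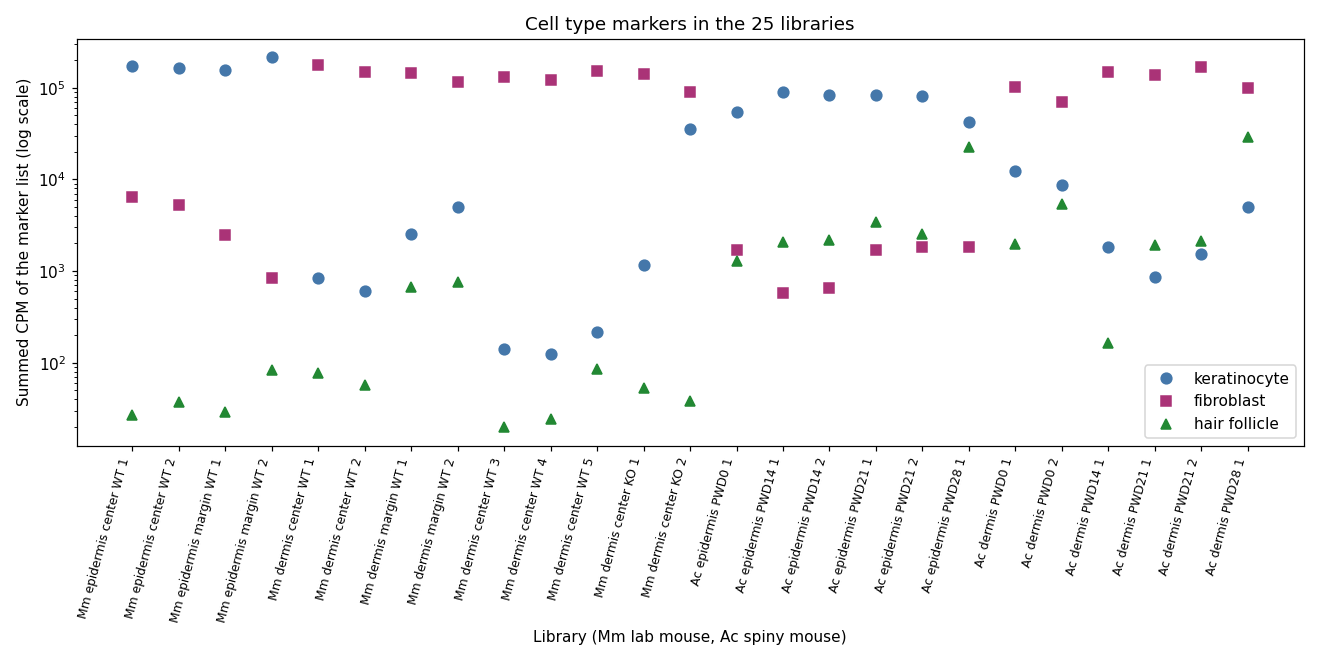
Summed CPM (log scale) of 14 keratinocyte, 15 fibroblast and 11 hair follicle marker genes in each of the 25 libraries, 1 point per list and library. The keratinocyte sum of KO dermis replicate 2 (35732 CPM) lies above that of every other dermis library, and both spiny mouse PWD28 libraries have the highest follicle sums.

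In laboratory mouse wounds at PWD14, the ligands differed by layer. Bmp7 and Bmp3 RNA was higher in epidermis, and Bmp5, Bmp6 and the antagonist Grem1 were higher in dermis. The comparison was made by edgeR's quasi-likelihood test, averaged over center and margin, in the 4 epidermis libraries and 4 WT dermis libraries (center replicates 1 and 2, and margin). In it 5 of the 10 genes passed a false discovery rate (FDR) of 0.05, beside 61.6% of all 15531 genes tested, so the share among the 10 was not above that of all genes. Layer cannot be told apart here from read type, since epidermis was sequenced paired-end and dermis single-end. In whole tissue, fewer cells of a type and less RNA per cell cannot be told apart either.

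Bmp7, a ligand of epithelia in many organs, was at 51.3 and 61.7 CPM in the epidermis center and at 40.0 and 34.0 CPM in the margin. In dermis it was at 0 counts in both center libraries of this comparison and at 5.30 and 7.57 CPM in the margin. Every epidermis library was thus above every dermis library. At the margin, where both layers had counts, the difference was a log2 fold change of 3.37 ± 0.43 (SE, FDR 0.000141, edgeR quasi-likelihood test), and at the center epidermis was at least 366-fold higher, against 3 counts in the dermis library where that amount was largest. The 3 other WT dermis center libraries held 3.28, 1.36 and 0 CPM.

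Bmp3, an atypical ligand that acts against osteogenic BMPs, was at 11.3 and 12.9 CPM in the epidermis center, 20.4 and 12.7 CPM in the epidermis margin and 1.68 and 4.55 CPM in the dermis margin. The dermis center libraries of this comparison disagreed, at 14.8 and 1.39 CPM. The averaged layer difference was a log2 fold change of 2.30 ± 0.54 (FDR 0.00343). At the center alone it was 1.32 ± 0.96 and missed the threshold (FDR 0.284).

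Grem1, which binds Bmp2, Bmp4 and Bmp7, was at 10.3 and 33.0 CPM in the dermis center and 17.3 and 5.90 CPM in the dermis margin. In epidermis it was at 1.02 and 1.10 CPM in the center and at 0 counts in both margin libraries. At the center the layer difference was -3.54 ± 0.67 on the log2 scale (epidermis against dermis, FDR 0.00835), and at the margin dermis was at least 136-fold higher, against 3 counts. The 3 other WT dermis center libraries had more Grem1, at 94.2, 297 and 54.4 CPM. Over the 5 WT dermis center libraries the level was 97.8 ± 116 CPM (SD, n = 5), the largest SD of the 10 genes in that group. Fibroblast markers moved with Grem1 in epidermis, at 6395 and 5272 CPM in the center and 2451 and 848 CPM in the margin, and their part in the Grem1 reads of the epidermis was not tested.

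Bmp5 and Bmp6 belong to the same ligand subgroup as Bmp7 but were on the dermis side. Bmp5 was at 1.45, 4.38, 5.17 and 3.88 CPM in the 4 dermis libraries, at 0.398 CPM in 1 epidermis center library and at 0 in the other 3 epidermis libraries. Margin dermis was at least 53.2-fold above margin epidermis for Bmp5. Bmp6 was at 8.56, 2.83, 6.50 and 5.0 CPM in dermis and at 0.515, 1.41, 0.737 and 0.277 CPM in epidermis, with a log2 fold change of -2.38 ± 0.62 (FDR 0.00575). At the center alone, 2 against 2 libraries, neither passed the threshold (FDR 0.0972 for Bmp5 and 0.126 for Bmp6).

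The other members showed no layer difference past the threshold in the averaged test. Bmp2 was at 9.42 to 15.8 CPM in epidermis and 6.54 to 24.8 CPM in dermis (FDR 0.0535). Bmp4 was at 0.850 to 3.87 CPM in epidermis and 3.08 to 17.9 CPM in dermis, with a log2 fold change of -1.23 ± 0.55 (FDR 0.0728). Sostdc1 was at 7.53 to 19.7 CPM and 10.6 to 33.3 CPM (FDR 0.881), and Id1 at 12.9 to 23.8 CPM and 14.4 to 28.1 CPM (FDR 0.0963). Nog was at or under 0.824 CPM in all 8 libraries (FDR 0.755). Without TMM factors the median of all genes moved by -0.82 on the log2 scale, and Nog (-0.31) and Id1 (-0.27) then lay on the dermis side of 0, without passing the threshold. Without those factors 24.8% of the genes called were higher in epidermis, against 49.8% with them. In that fit 7 of the 10 members passed, beside 10179 of all 15531 genes tested. Over the alternative settings Bmp4 passed in 3 of 10 fits and Sostdc1 in 1 of 10. Bmp2 passed at the center alone, higher in epidermis (1.31 ± 0.34, FDR 0.0252).

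**Figure D2:**
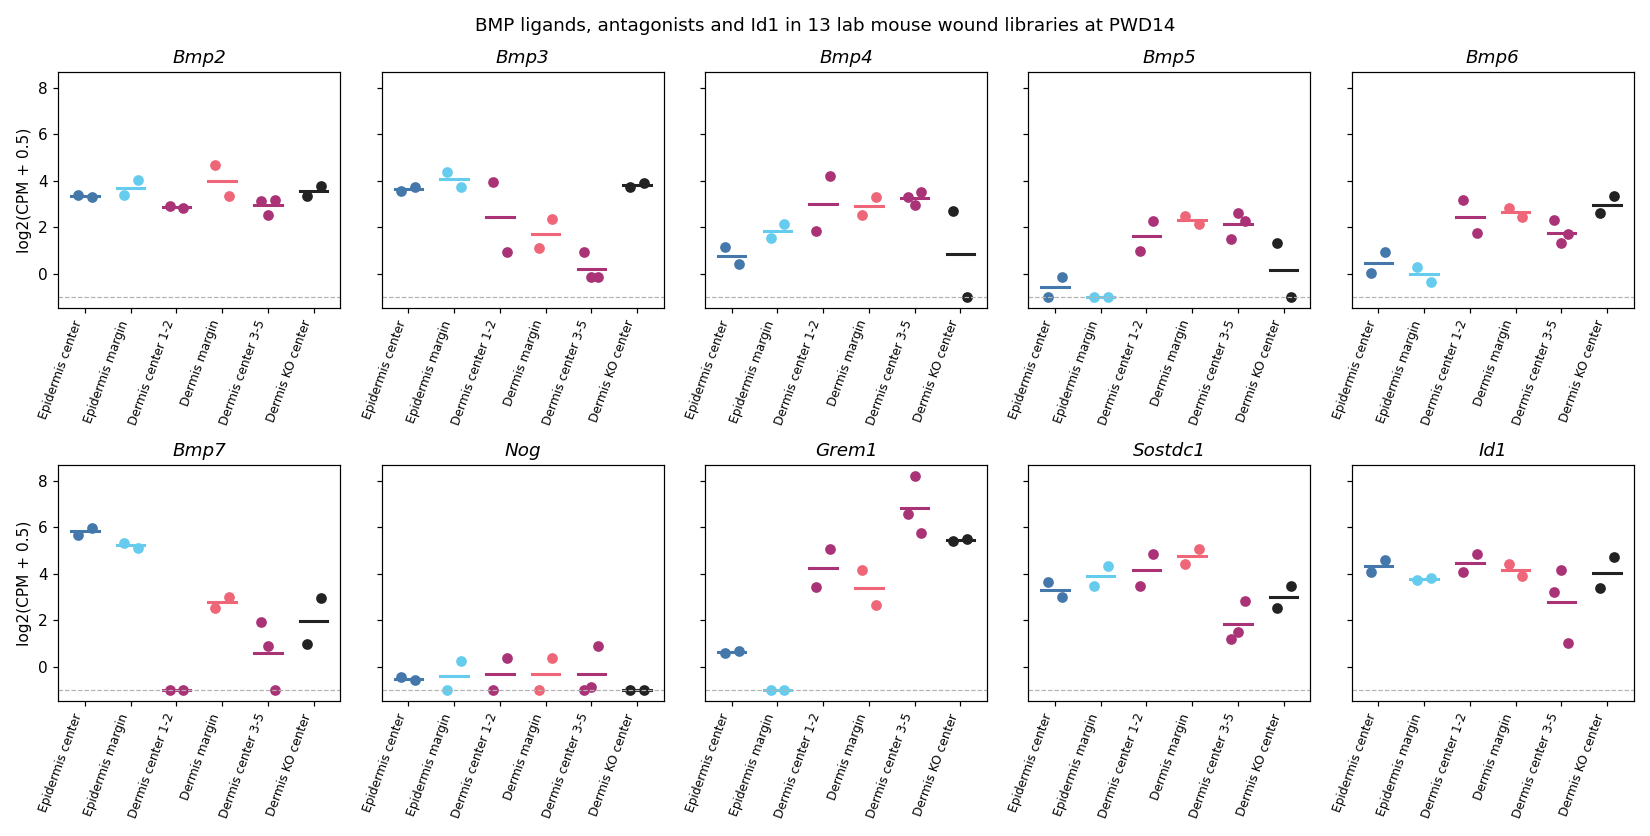
log2(CPM + 0.5) of each of the 10 genes in the 13 laboratory mouse libraries, 1 point per library, with a bar at the group mean and a dashed line at 0 counts. The 5 WT dermis center libraries are drawn as replicates 1 and 2, compared with the margin, and replicates 3 to 5, compared with the KO. Bmp7 sits at 34.0 CPM or above in all 4 epidermis libraries and at 7.57 CPM or under in all 9 dermis libraries, and Grem1 shows the reverse order.

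The level per exon length (CPM per kilobase of exon) allows genes to be ordered within a group. In epidermis center the order opened with Id1 (17.5 ± 4.3, SD, n = 2) and Bmp7 (15.4 ± 2.0), which lay within each other's spread, and went on to Sostdc1 (5.47 ± 1.77) and Bmp2 (2.73 ± 0.11). In dermis center (n = 5) Grem1 led at 23.6 ± 27.9, but its spread covered Id1 (12.5 ± 8.6), Sostdc1 (5.64 ± 6.23) and Bmp4 (4.69 ± 2.64). It led through replicates 3 to 5 (35.8 ± 31.4, n = 3). In replicates 1 and 2 Grem1 was at 5.22 ± 3.86, under Id1 (19.2 ± 7.1) and Sostdc1 (11.1 ± 7.2). Over all 5 libraries Bmp4 was the ligand with the highest mean level per length. Bmp7 (0.253 ± 0.393) and Nog (0.264 ± 0.367) had the lowest means of the 10 genes and lay within each other's spread. In the dermis margin (n = 2) Sostdc1 (15.3 ± 4.8) and Id1 (15.1 ± 3.8) led and did not differ beyond their spread.

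The second question was whether wound center, where new follicles form in this species, and wound margin differed. No member passed the threshold in either layer. In epidermis 9 of the 10 genes could be tested and 0 passed, beside 1.24% of the 14165 genes tested. In dermis all 10 were tested and 0 passed, beside 0.85% of 14698 genes. Of these, 2 in epidermis (Bmp4 and Grem1) and 1 in dermis (Bmp7) had an unadjusted p under 0.05 by edgeR's quasi-likelihood test, beside 23.5% and 15.8% of all genes. With DESeq2 or the likelihood ratio test, Grem1 passed in epidermis (FDR 0.0041 and 0.000398) and Bmp7 in dermis (FDR 7.4e-05 and 0.000503).

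Both of those genes rest on groups at 0. Grem1 had 69 and 61 counts in the epidermis center and 0 in both margin libraries, so the center was at least 12.5-fold higher against 3 counts. Bmp7 had 123 and 168 counts in the dermis margin and 0 in both center libraries, so the margin was at least 41.6-fold higher. When all 5 WT center libraries entered, Bmp7 in dermis was -2.45 on the log2 scale and remained short of the threshold. Keratinocyte markers were 2533 and 4955 CPM in the dermis margin against 608 and 845 CPM in center replicates 2 and 1, and follicle markers 669 and 763 CPM against 56.9 and 77.8 CPM. The part of these cells in the Bmp7 reads of the dermis was not tested.

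Among the ligands in epidermis, Bmp4 was at 1.69 and 0.850 CPM in the center and 2.44 and 3.87 CPM in the margin, without overlap and with a log2 fold change of -1.43 ± 0.54 (FDR 0.192). Bmp7 was likewise not overlapping, higher in the center by 0.51 ± 0.25 (FDR 0.279). In groups this small a lack of overlap does not by itself set a gene apart, and its share over all genes is not given. In dermis Bmp2 was at 6.93 and 6.54 CPM in the center and 24.8 and 9.64 CPM in the margin, a log2 fold change of -1.27 ± 0.66 (FDR 0.395). Bmp4, Bmp6, Sostdc1 and Id1 overlapped between dermis center and margin. Leaving out epidermis margin replicate 1 raised the genes called from 176 to 5508, with 5 members among them (Bmp2, Bmp4, Bmp7, Grem1 and Sostdc1), and leaving out margin replicate 2 raised it to 7405, with Bmp3 and Grem1 among them.

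The center-margin difference itself was compared between layers as an interaction in the same 8 libraries, in which 3.48% of 15531 genes passed. Bmp7 was the 1 member of 10 that passed (FDR 0.00354, edgeR quasi-likelihood test), with the center higher than the margin in epidermis and lower in dermis. It rests on the 0 counts of dermis center replicates 1 and 2. With all 5 WT dermis center libraries the interaction was 3.19 on the log2 scale and did not pass (FDR 0.213).

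The third comparison set KO against WT dermis center, 2 libraries against 3. Twist1 itself was at 73.4 and 44.0 CPM in the KO libraries and at 57.7, 36.3 and 105 CPM in the WT libraries, which overlap. This does not test the deletion, because the dermis is not the tissue in which the Cre is driven. None of the 9 members tested passed the threshold, beside 0.0565% of 14163 genes, and 2 (Bmp3 and Grem1) had an unadjusted p under 0.05 by edgeR's quasi-likelihood test, beside 11.5% of all genes. That no member passed does not show that the genotypes were alike. DESeq2 called 1 member, Bmp3 (FDR 0.000427), and the likelihood ratio test called 0. Without KO replicate 1, the only KO library left was that with the most keratinocyte markers, and many more genes were called than in the main fit.

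Bmp3 showed the widest gap between genotypes. It was at 12.7 and 14.5 CPM in KO and at 1.40, 0.403 and 0.418 CPM in WT, so that the groups did not overlap, with a log2 fold change of 4.10 ± 0.84 (FDR 0.164). Without KO replicate 2, the library with the most keratinocyte markers, the value was 4.04. That fit does not remove the difference in these markers. The other KO library, at 1159 CPM, was also above the 5 WT center libraries, which held 845 CPM or less. The part of these cells in the Bmp3 reads was not tested. WT center replicate 1, which was not among these 3 controls, held 14.8 CPM of Bmp3, and with all 5 WT center libraries the log2 fold change fell to 1.93 (FDR 0.48). That fit joins the controls of the KO with the separate set of the center-margin comparison, so a difference between sets enters it.

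Grem1 was lower in KO, at 42.8 and 44.3 CPM against 94.2, 297 and 54.4 CPM, also without overlap, with a log2 fold change of -1.75 ± 0.65 (FDR 0.372). WT center replicates 1 and 2 had 10.3 and 33.0 CPM, under both KO libraries. Bmp4 was at 6.07 and 0 CPM in KO against 9.40, 7.16 and 10.9 CPM (FDR 0.549), and Bmp5 at 1.98 and 0 CPM against 2.31, 5.69 and 4.29 CPM (FDR 0.562). The values of 0 were both from KO replicate 2. Bmp2 and Bmp6 lay above the WT range in both KO libraries (FDR 0.711 and 0.551), while Bmp7, Sostdc1 and Id1 overlapped. The share of all genes without overlap is not given, so a lack of overlap alone does not set these genes or Bmp3 apart. Nog was at 0 in both KO libraries and at 0, 0.0504 and 1.37 CPM in WT.

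In spiny mouse wounds, which regrow hair, Bmp4, Bmp7 and Sostdc1 were lowest at PWD14 in both layers and higher again at PWD28. Bmp7 of the epidermis did not differ past the threshold between PWD14 and PWD21. Id1 was highest at PWD14 in epidermis but at PWD0 in dermis. Both PWD28 libraries are those with high hair follicle markers (22488 and 29208 CPM), and the part of follicle cells in their levels was not tested. Across the 4 days, 8 of the 9 members tested in epidermis differed (all but Nog, with Bmp5 not tested), beside 59.5% of 14336 genes. In dermis 7 of 10 differed, all but Bmp3, Bmp5 and Bmp6, beside 24.7% of 15344 genes. PWD0 and PWD28 of epidermis and PWD14 and PWD28 of dermis have 1 library each, which the test takes to vary like the replicated days. Without the PWD0 library, 5 members of epidermis passed, among 7727 genes called.

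In the epidermis, Bmp2 was at 69.7 CPM at PWD0, 3.33 and 5.10 CPM at PWD14, 6.89 and 5.60 CPM at PWD21 and 37.6 CPM at PWD28 (FDR 1.66e-05, any day, edgeR quasi-likelihood test). Bmp4 went from 40.4 CPM to 0.388 and 1.28 CPM, then to 9.04 and 6.91 CPM and 72.5 CPM (FDR 1.19e-05). Bmp4 was thus lowest at PWD14 and Bmp2 low at PWD14 and PWD21, and both were high at PWD0 and in the PWD28 library, which held 22488 CPM of follicle markers against 1281 CPM at PWD0 and 2064 to 3461 CPM at PWD14 and PWD21. Bmp7 was at 118 CPM at PWD0, 37.8 and 53.9 CPM at PWD14, 77.8 and 81.0 CPM at PWD21 and 147 CPM at PWD28 (FDR 0.0264). Bmp3 stood at 35.9 CPM at PWD0 and at 3.06 to 6.22 CPM at all later days (FDR 9.52e-05), so it did not come back. Bmp6 was at 7.46 CPM at PWD0, 0.388 to 1.98 CPM at PWD14 and 21, and 4.52 CPM at PWD28 (FDR 0.0196).

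Among the antagonists of the epidermis, Sostdc1 was at 84.2 CPM at PWD0, 14.5 and 14.6 CPM at PWD14, 83.1 and 97.0 CPM at PWD21 and 98.8 CPM at PWD28 (FDR 5.59e-05). At PWD21 it was thus near its unwounded level, while Bmp2 and Bmp4 were still below theirs. Grem1 was at 6.04 CPM at PWD0 and at or under 0.411 CPM, or 4 counts, at each later day (FDR 6.21e-05). Nog was at or under 0.930 CPM in all 6 libraries.

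Id1, the readout of the pathway, was at 40.0 CPM at PWD0, 114 and 190.2 CPM at PWD14, 65.6 and 48.5 CPM at PWD21 and 78.9 CPM at PWD28 (FDR 9.73e-05). Its highest libraries were those with the lowest Bmp4, Bmp7 and Sostdc1. The days with 2 libraries each allow the direct test of PWD14 against PWD21, in which 3 of the 7 members tested passed, beside 46.6% of 12889 genes. Id1 was higher at PWD14 by a log2 fold change of 1.95 ± 0.24 (FDR 0.000141). Bmp4 (-2.67 ± 0.49, FDR 0.00128) and Sostdc1 (-2.07 ± 0.19, FDR 5.17e-05) were lower. Bmp2 (-0.02 ± 0.34), Bmp3 (-0.28 ± 0.34), Bmp6 (0.45 ± 0.62) and Bmp7 (-0.24 ± 0.19) did not pass.

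These 3 calls kept their direction and passed at each alternative setting in which the gene could be tested and with each library left out, though the scaling moved their size. Without TMM factors the median of all genes moved by -0.55 on the log2 scale, Id1 was 1.41, and 18.9% of the genes called were higher at PWD14, against 50.2% with the factors. Bmp7 then also passed, at -0.79 (FDR 0.00749). Hair follicle markers moved with this comparison, with 9 of 11 called, 7 lower and 2 higher at PWD14, a median log2 fold change of -3.18 and sums of 2064 and 2197 CPM at PWD14 against 3461 and 2550 CPM at PWD21. Their part in the lower Bmp4 and Sostdc1 was not tested. Of 5 adipocyte markers, Fabp4 was at 6302 and 5159 CPM at PWD14 and 27.9 to 1347 CPM at the other days, and Cidec was lower at PWD14, at 0.775 and 0 CPM against 2.78 to 9.82 CPM. Adipoq was at or under 0.513 CPM and Plin1 and Lep at or under 0.128 CPM in all 6 libraries.

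**Figure D3:**
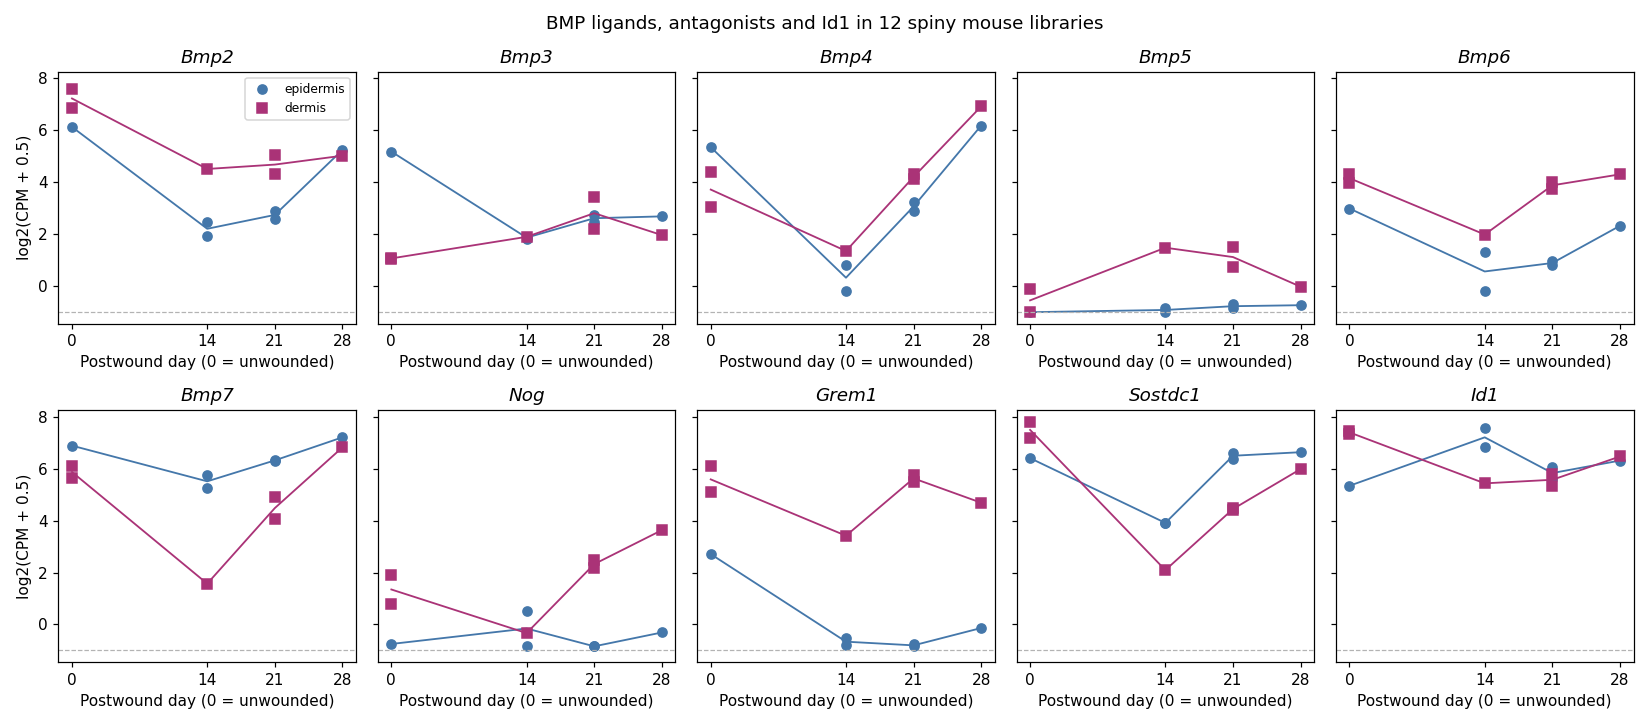
log2(CPM + 0.5) of each of the 10 genes in the 12 spiny mouse libraries against postwound day (0 is unwounded skin), with 1 point per library, circles for epidermis, squares for dermis and a line through the mean of each day. Bmp4, Bmp7 and Sostdc1 dip at PWD14 in both layers, with 1 dermis library on that day. Bmp7 of the epidermis did not differ past the threshold between PWD14 and PWD21 (-0.24 ± 0.19). Id1 is highest at PWD14 in epidermis, at 114 and 190.2 CPM, and at PWD0 in dermis. Nog is above 1 CPM in dermis libraries only.

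In spiny mouse dermis, the levels of PWD21 were compared with unwounded skin, in which 5 of 10 members passed, beside 26.2% of 14481 genes. Bmp2 was at 192 and 116 CPM at PWD0 and 19.4 and 32.7 CPM at PWD21, a log2 fold change of -2.70 ± 0.42 (FDR 0.00328). Sostdc1 went from 225 and 144 CPM to 20.5 and 22.1 CPM (-3.25 ± 0.37, FDR 0.000793). Id1 fell from 161 and 175 CPM to 40.3 and 55.0 CPM (-1.92 ± 0.30, FDR 0.00303). These 3 genes passed at each alternative setting and with each library left out.

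Bmp7 was at 68.6 and 49.1 CPM at PWD0 and 16.3 and 29.2 CPM at PWD21 (-1.49 ± 0.40, FDR 0.0265). Bmp3 was the 1 member higher at PWD21, from 1.59 and 1.62 CPM to 4.06 and 10.3 CPM (2.08 ± 0.61, FDR 0.0386). Both calls were lost without PWD21 replicate 1 (Bmp7 -1.09, FDR 0.172, and Bmp3 2.63, FDR 0.0632), and that of Bmp3 also without PWD21 replicate 2 (1.21, FDR 0.497). Keratinocyte markers moved with this comparison, at 12410 and 8785 CPM in the PWD0 dermis libraries and 860 and 1525 CPM at PWD21. Of the 14 keratinocyte genes 11 were called lower at PWD21. Follicle markers were at 1981 and 5435 CPM and then 1929 and 2150 CPM, with 4 of 11 genes called lower and 1 higher. Of the other marker lists, 5 of 5 adipocyte genes were lower at PWD21 (sums of 968 and 936 CPM, then 248.6 and 122 CPM), as were 5 of 7 muscle genes (209 and 483 CPM, then 107 and 143 CPM). Higher at PWD21 were 8 of 15 fibroblast genes (103043 and 70024 CPM, then 138457 and 169824 CPM) and 3 of 6 endothelial genes (88.9 and 184 CPM, then 345 and 337 CPM). The part of these cells in the lower Bmp2, Bmp7, Sostdc1 and Id1 was not tested.

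The dermal ligands and antagonists were not all lower than in unwounded skin at PWD21. Bmp4 was at 7.76 and 20.6 CPM at PWD0 and 16.8 and 19.3 CPM at PWD21 (0.29 ± 0.42, FDR 0.638), Bmp6 at 19.8 and 15.3 CPM and 13 and 15.7 CPM (FDR 0.432), and Grem1 at 33.5 and 67.5 CPM and 54.1 and 44.1 CPM (-0.11 ± 0.32, FDR 0.827). Nog was at 1.23 and 3.23 CPM and then 3.97 and 5.12 CPM (0.95 ± 0.56, FDR 0.235). Bmp5 rested on 0 and 3 counts at PWD0 and was at 2.33 and 1.18 CPM at PWD21 (FDR 0.0874).

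The single dermis libraries of PWD14 and PWD28 carry no replicate. At PWD14 the levels were 22.4 CPM of Bmp2, 2.06 CPM of Bmp4, 3.47 CPM of Bmp6, 2.47 CPM of Bmp7, 10.2 CPM of Grem1, 3.77 CPM of Sostdc1 and 0.294 CPM of Nog. Each of these but Bmp2 was lowest at PWD14 of the 4 days on both CPM scales, and Bmp2 with TMM factors was lowest at PWD21. At PWD28 Bmp4 was at 121 CPM, Bmp7 at 113 CPM and Nog at 11.9 CPM, the highest dermis level of each. Any-day tests gave FDR 0.00256 for Bmp4, 0.00419 for Bmp7 and 0.0208 for Nog. Id1 was at 42.7 CPM at PWD14 and 88.1 CPM at PWD28, against a mean of 168 CPM at PWD0 (any day, FDR 0.00871). The PWD28 dermis library also held 29208 CPM of hair follicle markers, and their part in these levels was not tested.

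The layers of the spiny mouse were compared over all 12 libraries with day in the model, in which 7 of 10 members passed, beside 54% of 15288 genes. Higher in dermis were Grem1 (-5.64 ± 0.71, log2 fold change of epidermis against dermis, FDR 3.22e-05), Bmp5 (-4.14 ± 0.66, FDR 7.78e-05), Nog (-3.90 ± 1.0, FDR 0.00463), Bmp6 (-2.11 ± 0.43, FDR 0.00147) and Bmp2 (-1.43 ± 0.33, FDR 0.00335). Epidermal Grem1, Nog and Bmp5 were near the floor of 3 counts after wounding, so the size of those differences is not well set. Bmp7 was higher in epidermis (1.83 ± 0.51, FDR 0.0104). Sostdc1 was also higher there (1.31 ± 0.51, FDR 0.0475), but the call was lost in 10 of the 12 fits that left out 1 library and under 4 other settings, and at PWD0 dermis held more of it, with 225 and 144 CPM against 84.2 CPM. Without the 2 PWD28 libraries Sostdc1 was 1.52 (FDR 0.0536).

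Bmp3 (1.13 ± 0.61, FDR 0.142), Bmp4 (-0.29 ± 0.41, FDR 0.568) and Id1 (0.17 ± 0.52, FDR 0.802) showed no layer difference past the threshold over all days. At PWD21 alone, 2 libraries against 2, Bmp4 was lower in epidermis (-1.04, FDR 0.0128). In both species Bmp7 was called on the epidermis side and Bmp5, Bmp6 and Grem1 on the dermis side. The difference between species was not tested, since spiny mouse reads were aligned to the laboratory mouse genome and the wounds differ in age and division.

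**Figure D4:**
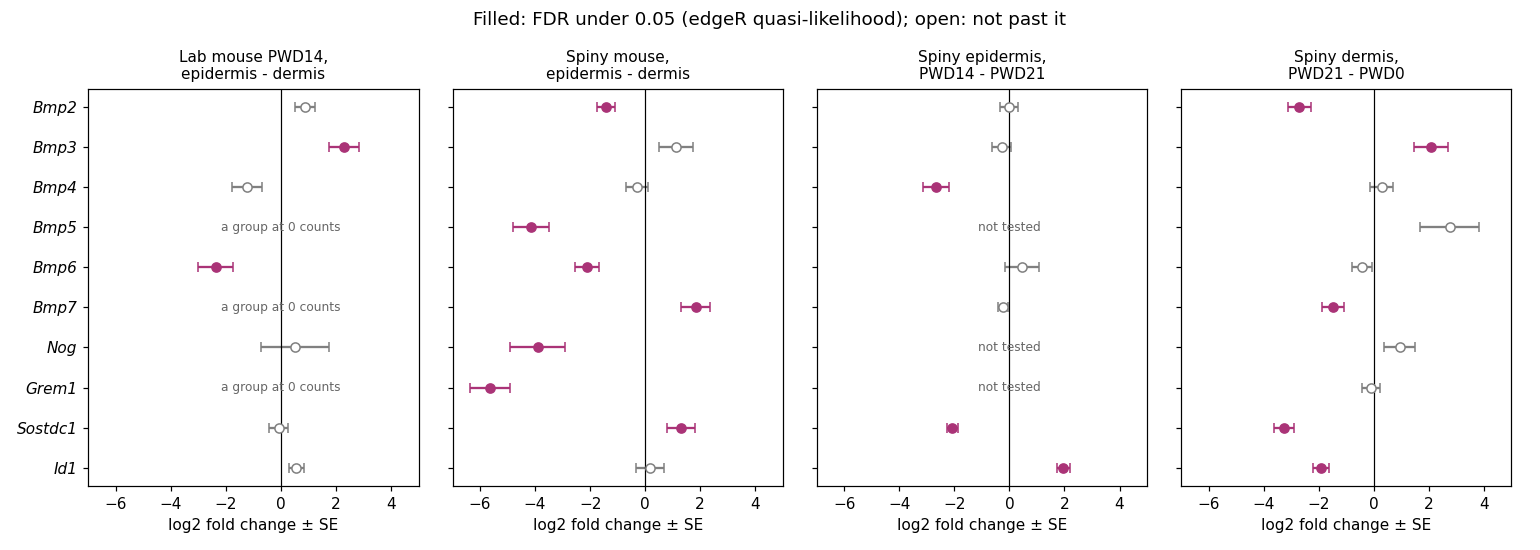
log2 fold changes with their standard errors (edgeR quasi-likelihood test) for the 10 genes in 4 comparisons, filled where the FDR is under 0.05. Genes with too few counts to test, and laboratory mouse genes with a group at 0 counts, whose fitted fold change is no estimate, are written in place of a point. Sostdc1 is lower at PWD14 than at PWD21 in spiny mouse epidermis (-2.07) and lower at PWD21 than at PWD0 in the dermis (-3.25).

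The rest of the pathway was followed in 63 further genes. They were 12 receptors and coreceptors, 11 Smads and intracellular regulators, 13 other ligands and proteases, and 11 other targets. The remaining 16 were listed as other antagonists. Of all 63, 1 of 43 tested passed in epidermis center against margin (2.33%, beside 1.24% of all genes). In dermis center against margin 1 of 51 passed (1.96%, beside 0.85%). In KO against WT 0 of 47 passed, beside 0.0565% of all genes. Between the laboratory mouse layers 39 of 51 passed (76.5%, beside 61.6% of all genes), 17 higher in epidermis and 22 higher in dermis. In spiny mouse epidermis 13 of 40 passed between PWD14 and PWD21 (32.5%, beside 46.6% of all genes), 9 higher and 4 lower at PWD14. In dermis 26 of 55 passed between PWD21 and PWD0 (47.3%, beside 26.2%), 15 higher and 11 lower at PWD21. Their median log2 fold changes in the last 2 comparisons were -0.16 and -0.04, beside -0.04 and 0.03 over all genes tested.

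Several of these were on the list of other antagonists. Fstl1, a follistatin-related secreted protein, was the 1 call in laboratory mouse epidermis, at 61.3 and 51.0 CPM in the center and 9.64 and 4.68 CPM in the margin (2.92, FDR 0.0455), where fibroblast markers moved alike and their part was not tested. The call in dermis was the target Gata3, a factor of epidermal differentiation, at 2.58 and 0 CPM in the center and 27.7 and 23.1 CPM in the margin (FDR 0.0484). Among 12 genes listed as other antagonists and tested between the laboratory mouse layers, 7 were higher in dermis and 1 in epidermis. The shares of all genes were 30.9% and 30.7%. Chrd, Chrdl1 and Bmper, which encode chordin and chordin-like ligand-binding proteins, led toward the dermis. The targets Dlx3, Dlx5 and Gata3 led toward the epidermis (Gata3 at 107 to 185 CPM against 0 to 27.7 CPM).

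In spiny mouse dermis between unwounded skin and PWD21, 10 of 15 genes listed as other antagonists passed. Of these 4 were higher and 6 lower, beside 12% and 14.2% of all genes. Whether each listed protein blocks BMP signaling was not tested, so the counts do not give a direction of antagonism. Kcp, a chordin family protein, was at 1.06 and 1.03 CPM at PWD0 and 58.6 and 63.0 CPM at PWD21 (5.75, FDR 0.000191), and Fstl1 (1.92, FDR 0.00443) and Twsg1 (1.75, FDR 0.0141) rose with it. Sost, a paralog of Sostdc1, was at 15.3 and 23.5 CPM and then 0.137 and 0.748 CPM (-5.43, FDR 0.00145), and Chrdl1 (-5.37, FDR 0.000227) and the target Dlx5 (-3.53, FDR 0.00298) fell too. In spiny mouse epidermis the genes highest at PWD14 against PWD21 were the target Runx2 (2.88, FDR 0.000305), Fstl1 (1.28, FDR 0.000428) and Smad7, an inhibitory Smad (0.90, FDR 0.00366). The target Msx2 (-2.18, FDR 0.00145), the antagonist Fstl3 (-2.02, FDR 0.0111) and the receptor Acvr2a (-0.76, FDR 0.00794) were lower. Of the 8 other targets tested there, 3 were higher and 1 was lower at PWD14, beside 23.4% and 23.2% of all genes, so targets did not all move with Id1. Between the spiny mouse layers, Gata3 (3.64), Dlx5 (3.35) and Tob1 (2.28) led toward the epidermis and Sost (-8.39) and the endothelial coreceptor Eng (-7.47) were among those that led toward the dermis.

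The genes most like each member were found by Pearson correlation of log2(CPM + 0.5) across the libraries of a species, as a description, since the libraries share layer, depth and day. Across the 12 spiny mouse libraries these were Trim59 (r = 0.97), Pdcd4 (0.964) and B3gnt2 (0.963) for Bmp4. Those for Bmp7 were Plekha7 (0.973), Hr (0.968) and Map3k5 (0.967), where Hr encodes the hairless corepressor of the hair cycle. Sostdc1 was most like Tmbim1 (0.983), Dhrs11 (0.967) and Lactb2 (0.953), and Grem1 most like Rcan2 (0.991), Rragb (0.987) and Tmem47 (0.983). The closest gene to Id1 was Nsun4 (0.88). Across the 13 laboratory mouse libraries Bmp7 was most like the epithelial splicing regulator Esrp2 (0.974), Macc1 (0.973) and Rnf225 (0.97), and among the genes most like Grem1 were Slc12a7 (0.976) and Msn (0.974). Among the members themselves, Id1 correlated with Bmp3 at -0.663 and with Bmp7 at 0.295 across the spiny mouse libraries, and Sostdc1 with Bmp7 at 0.79.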

How the data were processed

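RNA-seq was made from polyA RNA of separated dorsal epidermis and dermis, paired-end in laboratory mouse epidermis, single-end elsewhere and without strand in the spiny mouse. For each of the 25 libraries the authors deposited unnormalized counts for each gene symbol, aligned to mm10, with STAR 2.4.1d, HTSeq 0.6.0 and edgeR in the submitters' processing notes. The 5 summary lines of each table were left out. Reads of the spiny mouse on the mouse genome were set aside for low alignment quality at 38% to 60.5%, against 23.3% to 34.4% in the laboratory mouse, which can lower diverged genes. Levels are CPM over all gene rows, with no TMM factor. A fold against a group at 0 counts is a lower bound against 3 counts in a library. Such floors cover counting error only.

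Differences were tested with edgeR 4.0.16 (R 4.3.3, limma 3.58.1): TMM factors, the filterByExpr function, the quasi-likelihood test with a prior count of 0.125, and Benjamini-Hochberg adjustment (FDR) over all genes tested. The standard error was taken as the fold change on the log2 scale divided by the root of the F statistic. Groups came from the labels. The split of WT dermis center libraries into replicates 1 and 2 (with the margin) and 3 to 5 (with the KO) followed the library names in the study's own clustering. Pairs of libraries of a group differed by 28.3 to 375 times counting noise (chi-square per degree of freedom), so none was taken for a repeat deposit of another. Among the WT dermis center libraries, pairs within a set differed by 80.0 to 98.2 times and pairs across the sets by 134 to 214 times. Results with all 5 join both sets, and the methods do not say whether their mice share a strain. Alternatives were DESeq2 1.42.0, the likelihood ratio test, the edgeR 3 quasi-likelihood estimate, RLE or no normalization factors, no filter, at least 10 counts in every library, other library sets and each library left out. The day labels of all wounded spiny mouse libraries differ from the study's sample list, and only those of PWD0 are the same. The labels, whose days are also those of the study's main text, were used. Tested on simulated data, the test recovered the sizes of change but missed many changed genes at the spread of the dermis center-margin libraries and all at that of the KO and WT libraries. Figures used matplotlib 3.10.9. The 10 genes and the lists were chosen with earlier results of these data known. Named beyond the 10 are, in each comparison, up to 3 listed pathway genes per direction, ranked by size of difference, that had an FDR under 0.05 and averaged 1 CPM or more, and for each of the 10 up to 3 genes most like it. Some genes that this rule names are not reported here.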

Additional observations from a re-analysis of the deposited data

Results flagged for a closer look

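Bmp3 in WT dermis center replicate 1, at 14.8 CPM, lay far from the other 4 libraries of its group, which held 0.403 to 1.40 CPM. Its gap to the nearest of them was 0.931 of the whole range of the group, above the limit of Dixon's test for 5 samples. The 10 genes were each tested in this group, and chance flags about 1 in 20 such groups. The group joins the separate sets of the center-margin and the KO comparison, and replicate 1 belongs to the former. That library was at 0 counts of Bmp7 and Nog and its keratinocyte markers, at 845 CPM, were the highest of the 5, and the part of either in the Bmp3 value was not tested.

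The center-margin difference of Bmp7 differed between epidermis and dermis of the laboratory mouse (FDR 0.00354, edgeR quasi-likelihood interaction test), with 2 libraries in each of 4 groups. The call was lost with all 5 WT dermis center libraries (FDR 0.213).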

How the results depend on the processing

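Of the 75 differences with a direction, 21 passed the threshold. None of the 21 changed direction, and they passed in 159 of 167 fits under another setting and in 151 of 164 fits with 1 library left out. Those lost were Sostdc1 between the spiny mouse layers, Bmp3 and Bmp7 in spiny mouse dermis, Bmp3 (1.32), Bmp5 (-3.15) and Bmp6 (-1.83) between the laboratory mouse layers at the center alone, and Bmp7 in the interaction. Counts of genes called moved with the test. In epidermis center against margin 176 became 1511 with DESeq2, 1533 with the likelihood ratio test and 0 with the edgeR 3 estimate, and members called went from 0 to 1, 1 and 0. In dermis 125 became 738, 886 and 54 (members 1, 1 and 0) and 323 with 5 WT center libraries. In KO against WT 8 became 787, 214 and 2 (members 1, 0 and 0), 190 with 5 WT libraries and 0 with at least 10 counts in every library. In the interaction 540 became 1125 and 1485 with DESeq2 and the likelihood ratio test (2 members each) and 204 with at least 10 counts (0 members), and 5 center libraries left 0 members. Between laboratory mouse layers 3 members passed with at least 10 counts, among 6776 genes called, and 3 at the center alone, among 8038. Without TMM factors 7 passed, among 10179 genes called. In the spiny mouse, at least 10 counts gave 7452 genes with 5 members over epidermis days and 4806 genes with 2 members between layers. The likelihood ratio test gave 6597 genes over dermis days. The minimum of 10 counts tests fewer genes.

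With 1 library left out, genes called ranged from 70 to 7405 in epidermis center against margin (members 0 to 5), with the high counts without either margin library and the low ones without either center library. Each library moved the count by over 1.5 times there, in dermis and in KO against WT. They ranged from 19 (without margin replicate 2) to 241 (without center replicate 2) in dermis, from 1 (without WT replicate 3 or 5) to 3353 (without KO replicate 1) in KO against WT (members 0 to 2), and from 167 (without dermis margin replicate 2, with 220 to 278 without the other dermis or either epidermis center library) to 1343 (without epidermis margin replicate 2) in the interaction. In the spiny mouse they ranged from 3470 (without PWD21 replicate 2) to 6635 in epidermis PWD14 against PWD21, from 1311 (without PWD21 replicate 2, with 1360 without replicate 1) to 5118 in dermis PWD21 against PWD0 (members 3 to 6) and from 1604 and 1654 (without PWD21 replicate 2 or 1) to 6164 and 7260 (without PWD0 replicate 1 or 2) over dermis days. Over epidermis days members called ranged from 5 (without PWD0) to 9.

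Differences of uncalled genes changed sign without TMM factors (Nog -0.038 in dermis center against margin, Nog -0.31 and Id1 -0.27 between laboratory mouse layers, Bmp6 -0.093 in spiny mouse epidermis), with at least 10 counts (Id1 -0.033 between spiny mouse layers), with 5 WT center libraries (Bmp6 -0.30 and Id1 -0.18 in dermis center against margin, Sostdc1 -0.25 in KO against WT, 0.35 between layers and 0.76 in the interaction), at the margin alone (Sostdc1 0.0075 between layers) and at PWD21 alone (Bmp3 -0.26 between layers). Leaving out 1 library did so for 21 uncalled differences. In dermis center against margin they ranged from -1.09 to 2.39 for Bmp3, -1.10 to 1.36 for Bmp4, -1.51 to 0.0013 for Bmp5, -0.97 to 0.70 for Bmp6, -6.14 to 6.10 for Nog, -0.055 to 1.96 for Grem1 and -1.22 to 0.15 for Sostdc1. Nog ranged from -1.74 to 6.46 in epidermis center against margin and Bmp7 from -0.066 to 2.90 in KO against WT. Between laboratory mouse layers the ranges were -3.18 to 3.83 for Nog and -0.31 to 0.42 for Sostdc1, and in the interaction -0.11 to 1.34 for Bmp2, -2.90 to 0.56 for Bmp3, -7.70 to 6.22 for Nog, -0.89 to 0.49 for Sostdc1 and -0.22 to 0.51 for Id1. In the spiny mouse they were -0.34 to 0.20 for Bmp2 and -1.19 to 1.07 for Bmp6 in epidermis, -0.15 to 0.99 for Bmp4 and -0.42 to 0.32 for Grem1 in dermis, and -0.39 to 0.75 for Id1 between layers. The cause was not tested. Counts at or near 0 limit Nog throughout, at or under 1.37 CPM in each laboratory mouse library of these comparisons. No paired analysis was possible because the labels give no shared replicate numbers that pair libraries across groups.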
